A study of Mus musculus with 48 samples.

Results

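The glucocorticoid-responsive genes described here are 7 members of the hormone's pathway: Nr3c1, Hsd11b1, Fkbp5, Zbtb16, Klf9, Sgk1 and Pdk4. They were chosen by symbol from the expression matrix, which lists 47561 genes, and each symbol matched 1 gene. RNA was sequenced from whole lung of 48 adult mice in 16 groups of 3, with male and female mice of the strains C3H/hen (C3H) and C57Bl/6 (C57B), as the labels spell them. The study's methods name the latter as the C57Bl/6N substrain. Each mouse received 1 intraperitoneal injection, either saline or 25 mg/kg of the gold drug aurothioglucose (ATG), known to block the antioxidant enzyme thioredoxin reductase. Each then breathed room air or hyperoxia, more than 95% oxygen, for 96 hours. Every combination of strain, sex, injection and air was present, so each strain, injection and air condition held 6 mice, 3 of each sex. No mouse was left uninjected, and no steroid was given or measured according to the labels. The 12 saline room-air mice are called baseline below.

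Glucocorticoids are steroid hormones of the adrenal cortex that rise with stress and with the daily rhythm. They bind the glucocorticoid receptor, which is held in the cytoplasm by chaperones, moves to the nucleus on binding, and activates or represses genes near its DNA sites. In the lung this pathway is known for restraining inflammation, for driving sodium and fluid uptake across the alveolar wall and for maturing the surfactant system before birth. Fkbp5, Zbtb16, Klf9, Sgk1 and Pdk4 are among the genes most often used as readouts of receptor activity, Nr3c1 encodes the receptor, and Hsd11b1 encodes an enzyme that regenerates active hormone inside cells.

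Values are FPKM, fragment counts scaled by transcript length and by the mapped total, which allow levels to be set side by side between genes. Differences are on the log2(FPKM + 1) scale, which understates the change of low genes, and every adjusted p comes from limma fitted across all genes that passed the filter, with Benjamini-Hochberg adjustment. Folds are ratios of FPKM + 1 from the same fits, so they too understate the change in FPKM of low genes. A call means an adjusted p under 0.05. All 7 members passed the filter in both fits. Read depth is not in the matrix, so no counting interval is given. FPKM summed to between 510933 and 748290 per mouse, and the club cell secretoglobin Scgb1a1 took between 1.20% and 30.2% of that sum. The ribosomal RNA gene Rn18s-rs5 was listed highest in 3 C3H male room-air mice, at 25895 FPKM in saline mouse 1, 22813 in ATG mouse 4 and 20766 in saline mouse 3, against a median of 5740 over all mice and 11999 in the next mouse, saline mouse 2 of the same group. Fits were repeated without mice 1 and 3, and, as an alternative chosen after seeing the data, without mice 1, 3 and 4. The lung label was borne out by surfactant and other alveolar type 2 markers, which summed to between 25956 and 49766 FPKM in the baseline mice.

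The regulatory sequence at the start of 2 members is shown first, because a glucocorticoid receptor site in its full palindromic form lay in only 1 of the members' windows. RefSeq promoter windows of 300 bases, from 250 bases before to 50 after a start, were found for 5 members, 10 windows in all, of which 6 belonged to alternative starts of Sgk1. Both strands were searched for the palindromic glucocorticoid response element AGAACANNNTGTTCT, for its shorter core GNACANNNTGTNC, for its single arm AGAACA, and for the clock-factor E-box CACGTG. The palindrome occurred in 3 of 32851 windows (0.00913%), the core in 0.475%, the single arm in 19.0% and the E-box in 7.15%. A match is a description of letters and not evidence of binding.

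Sgk1 encodes a serine/threonine kinase that keeps epithelial sodium channels at the cell surface. Of its 6 windows, that at chr10:21993640-21993889 (GRCm38.p6, plus strand) held the palindrome at positions -189 to -175 from the start. It also held an E-box at -246 to -241, which overlaps a further single arm, at -242 to -237, on the other strand. This stretch lies within an intron of longer Sgk1 transcripts and overlaps no Sgk1 exon. Fkbp5 encodes a co-chaperone that lowers the receptor's affinity for hormone, and its single window at chr17:28486150-28486399 (GRCm38.p6, minus strand) held an E-box at -169 to -164 and no single arm. The 250 bases before each start read as follows, 5′ to 3′ on the gene's strand, with capitals for the palindrome and the E-boxes.
Sgk1: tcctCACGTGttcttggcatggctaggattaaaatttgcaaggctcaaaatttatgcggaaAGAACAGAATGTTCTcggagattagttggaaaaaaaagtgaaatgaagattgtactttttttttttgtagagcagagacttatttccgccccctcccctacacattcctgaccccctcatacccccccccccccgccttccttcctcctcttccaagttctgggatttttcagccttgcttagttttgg
Fkbp5: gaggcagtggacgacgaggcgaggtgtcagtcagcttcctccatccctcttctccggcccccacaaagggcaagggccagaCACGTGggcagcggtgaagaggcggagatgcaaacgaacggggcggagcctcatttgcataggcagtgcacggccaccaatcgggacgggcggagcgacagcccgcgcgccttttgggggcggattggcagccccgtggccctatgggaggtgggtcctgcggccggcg

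The windows of Klf9, Pdk4 and Hsd11b1 held none of these letters. Among the genes of the wider lists described below, Mt1 and Txnip held the shorter core.

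Hyperoxia against room air gave the broadest difference in the 7 members. In saline mice, Fkbp5, Pdk4, Zbtb16, Sgk1 and Klf9 were higher in hyperoxia and Nr3c1 was lower, and Hsd11b1 did not pass the test. The difference was largest for Fkbp5, at 9.81-fold. Of the 7 members 6 were called, 5 higher and 1 lower, against a background in which 61.6% of all 16994 genes tested were called, 32.4% higher and 29.1% lower. The count of members called therefore sits close to a background that was itself high, and the sizes below are the more informative values. The median log2 fold change of the members was 1.24, and that of all genes tested, in which higher and lower genes offset each other, was 0.01. The members were chosen with earlier results of these data known, so these medians are a description and not a test.

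**Figure D1:**
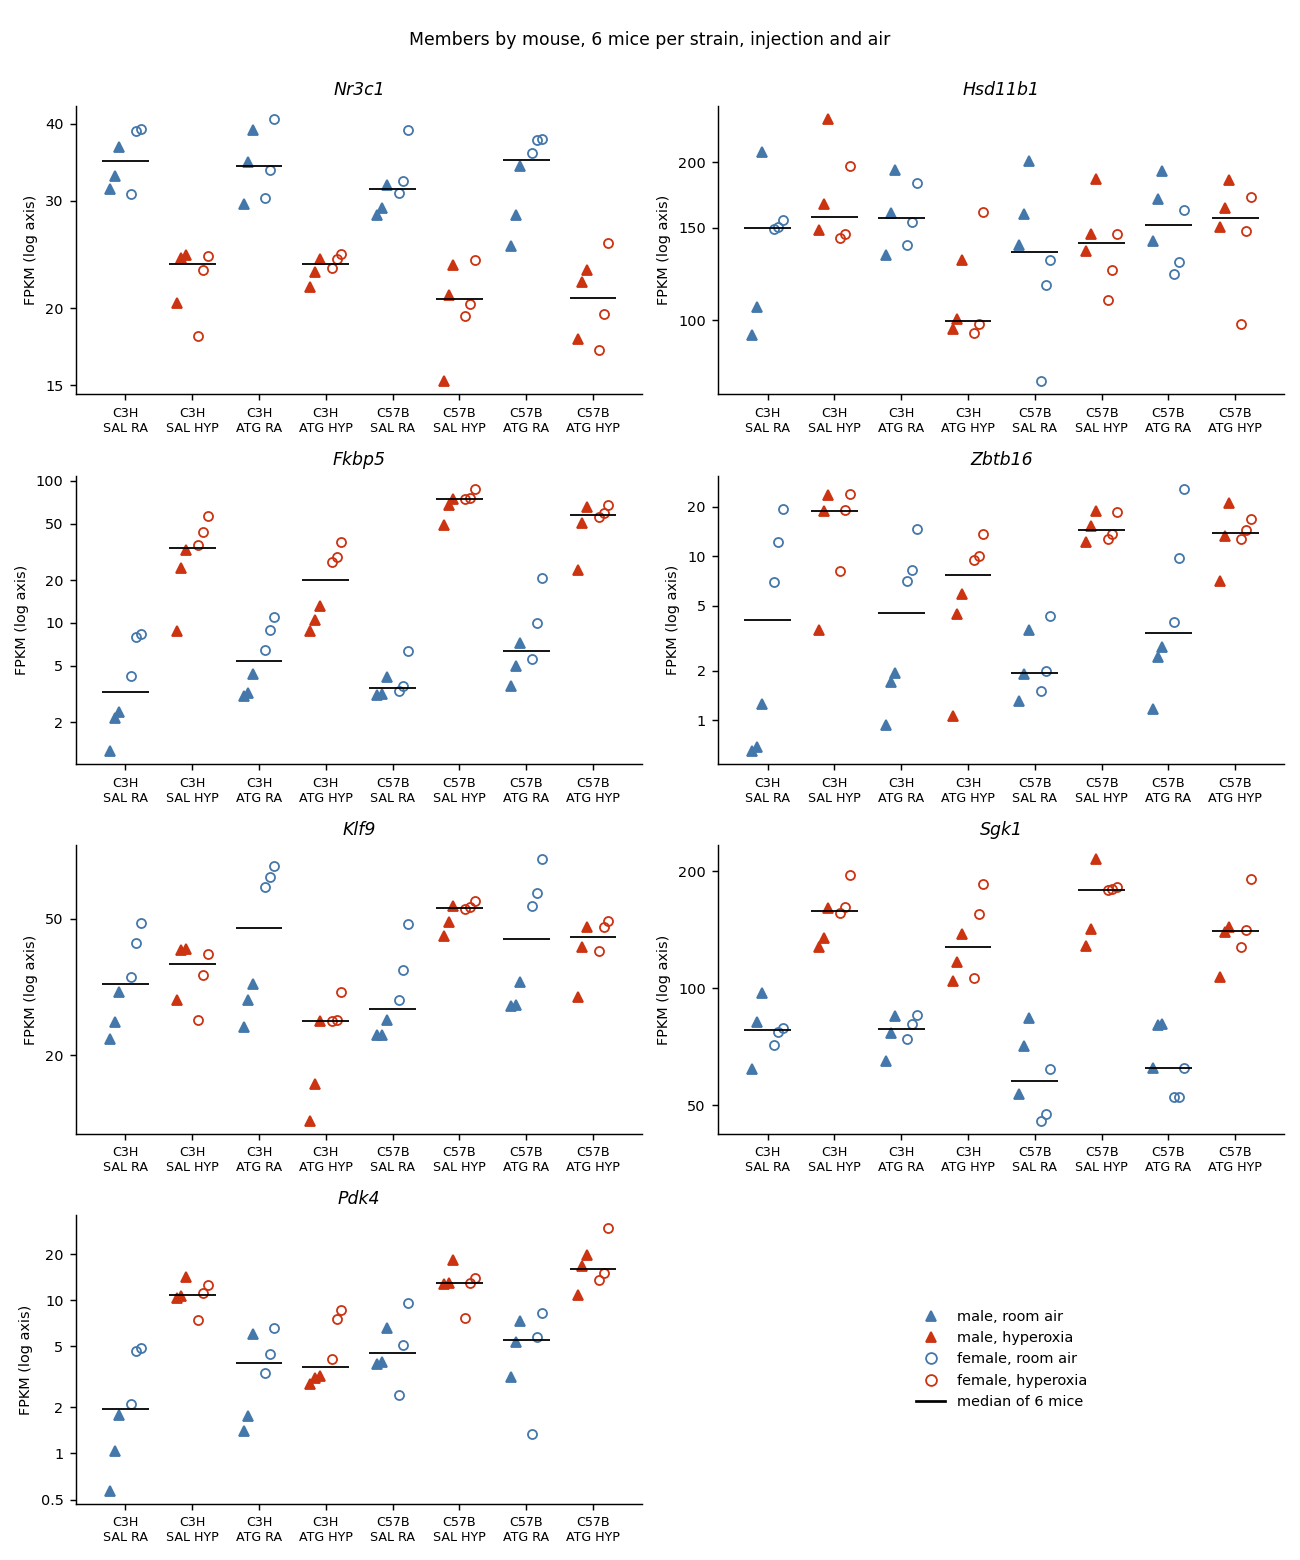
FPKM of each member (log axis, one panel per gene) for every mouse, in columns of 6 mice by strain, injection (SAL, saline; ATG, aurothioglucose) and air (RA, room air; HYP, hyperoxia); triangles are males, open circles females, blue room air, red hyperoxia, and the line is the median. Nr3c1 is lower and Fkbp5 and Sgk1 are higher in every saline hyperoxia mouse than in any saline room-air mouse.

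Nr3c1, the receptor itself, was lower in hyperoxia than in room air. In the 12 baseline mice its FPKM ran from 28.5 to 39.2 with a median of 32.0. In the 12 saline hyperoxia mice it ran from 15.2 to 24.5 with a median of 22.1, so that the sets did not overlap. Only 7.47% of genes tested separated these 2 sets of 12 mice in this way, and 3 members did: Nr3c1 below, Fkbp5 and Sgk1 above. The log2 fold change of Nr3c1 was -0.62 ± 0.07 (SE), a 1.53-fold lower level, with an adjusted p of 5.92e-09. ATG mice gave -0.59, with levels of 25.3 to 40.8 FPKM in room air and 17.1 to 25.6 in hyperoxia, so that 1 mouse of each set entered the other's range. The fall was similar in size across the design: -0.62 in C3H and -0.62 in C57B after saline, and -0.54 and -0.64 after ATG. The interval of the strain difference in saline mice ran from -0.31 to 0.30, and that of the difference between injections from -0.19 to 0.24. By median, the 4 room-air sets of 6 mice lay between 31.3 and 35.0 FPKM and the 4 hyperoxia sets between 20.7 and 23.7, and within each of these ranges neighbouring sets overlapped.

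Hsd11b1, at chr1:193221634-193264075 (GRCm38, minus strand), encodes the reductase that turns inactive into active corticosterone in the mouse. It had the highest median FPKM of the members in all 4 room-air sets of 6 mice, with 76.5 to 210 over the 12 baseline mice. In saline hyperoxia the medians were 157 FPKM in C3H and 141 in C57B, against 150 and 135 at baseline, and the mice overlapped throughout. The fitted change was 0.19, with a 95% interval from -0.06 to 0.44 and an adjusted p of 0.186. In ATG mice it was -0.26 (adjusted p = 0.0657), a value that was called after median ratio scaling (-0.37, adjusted p = 0.00528), after quantile normalization (-0.52, adjusted p = 6.64e-04), without mice 1 and 3 (-0.26, adjusted p = 0.039) and in 6 of 48 fits that left out 1 mouse (mice 2, 4, 10, 17, 35 and 46). One condition lay lower: C3H mice given ATG had a median of 99.4 FPKM in hyperoxia (94.4 to 161) against 157 in room air (133 to 193). That change of -0.51 had an adjusted p of 0.0153, and 5 of the 6 hyperoxia mice were below every room-air mouse. Against C3H saline mice in the same hyperoxia it was -0.61 (adjusted p = 0.0415). The latter call was lost in 8 of 48 fits that left out 1 mouse (mice 7, 8, 11, 12, 31, 32, 34 and 36 of the labels' numbering), with the smallest value without C3H male saline hyperoxia mouse 7 (-0.51, adjusted p = 0.15), and with a filter at 0.1 FPKM or none (adjusted p = 0.0546 and 0.0686).

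Fkbp5, at chr17:28399094-28517527 (GRCm38, minus strand), showed the widest range of the members as a ratio of the highest to the lowest mouse. The 12 baseline mice had between 1.26 and 8.32 FPKM, with a median of 3.46. In saline hyperoxia they had between 8.83 and 88.0, with a median of 52.9. No mouse of either set entered the other's range, although the lowest hyperoxia mouse, a C3H male, was near the highest room-air mouse. The log2 fold change was 3.29 ± 0.18 with a 95% interval from 2.93 to 3.66 (adjusted p = 9.67e-18). ATG mice started slightly higher in room air, at 3.06 to 20.7 FPKM, and reached 8.82 to 68.0 in hyperoxia, a change of 2.09 or 4.26-fold (adjusted p = 1.71e-12). These sets overlapped. By median, the 8 sets of 6 mice stood in the order C3H saline room air (3.27), C57B saline room air (3.46), C3H ATG room air (5.39), C57B ATG room air (6.36), C3H ATG hyperoxia (20.0), C3H saline hyperoxia (33.9), C57B ATG hyperoxia (57.3) and C57B saline hyperoxia (74.5). Each set in this order overlapped its neighbours.

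The transcription factors Zbtb16 and Klf9 differed from each other. Zbtb16, at chr9:48654297-48836222 (GRCm38, minus strand), encodes the zinc finger repressor PLZF. In C57B saline mice it ran from 1.32 to 4.32 FPKM in room air and from 12.2 to 18.9 in hyperoxia, without overlap. C3H saline mice overlapped, at 0.652 to 19.3 in room air and 3.54 to 23.9 in hyperoxia. The wide C3H room-air range came from a division by sex that is described below. Over both strains the change was 1.94 ± 0.26, 3.84-fold, with an adjusted p of 4.55e-08. In ATG mice it was 0.90 (adjusted p = 0.00313), with 1.31 in C57B and 0.48 in C3H. The C3H value was not called (adjusted p = 0.307).

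Klf9, at chr19:23141226-23168134 (GRCm38, plus strand), encodes a Krüppel-like factor that links hormone signals and the clock to growth arrest. It was the member called in opposite directions in saline and in ATG mice, taken over both strains and sexes. In saline mice it was higher in hyperoxia by 0.43 ± 0.10 (1.35-fold, adjusted p = 2.19e-04), and in ATG mice it was lower by a log2 fold change of -0.50 (1.41-fold, adjusted p = 3.76e-05). C57B saline mice had 22.8 to 48.2 FPKM in room air and 44.7 to 56.4 in hyperoxia, a change of 0.79 (adjusted p = 7.25e-06), and a single room-air mouse lay within the hyperoxia range. C3H saline mice showed 0.08, with an interval from -0.20 to 0.35, at medians of 32.2 and 36.9 FPKM. C3H ATG mice went the other way, with 24.2 to 71.5 FPKM in room air and 12.9 to 30.7 in hyperoxia, a change of -0.97 (adjusted p = 4.20e-07). C57B ATG mice had medians of 43.6 and 44.4 and an interval from -0.31 to 0.25. The C3H saline value pooled a lower median in hyperoxia in females (42.4 to 34.2 FPKM) with a higher one in males (25.0 to 40.5). So did the C57B ATG value, at 59.3 to 47.4 in females and 28.1 to 41.4 in males. These changes within a sex of a strain were not tested.

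The kinases Sgk1 and Pdk4 were both higher in hyperoxia. Sgk1, at chr10:21882184-21999903 (GRCm38, plus strand), was the most uniform of the members that rose. Saline mice had 45.6 to 97.2 FPKM in room air and 128 to 216 in hyperoxia. ATG mice had 52.4 to 85.3 and 105 to 191. Neither pair of sets overlapped, and Sgk1 was the single member that separated the 12 ATG mice in each air, which 12.3% of genes tested did. The log2 fold change was 1.24 ± 0.10 in saline mice (2.37-fold, adjusted p = 1.51e-13) and 0.93 in ATG mice (1.91-fold, adjusted p = 1.88e-10). Within strains it was 0.99 and 1.50 after saline, and 0.76 and 1.11 after ATG, for C3H and C57B in that order.

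Pdk4, at chr6:5483351-5496309 (GRCm38, minus strand), encodes a kinase that switches off pyruvate dehydrogenase and so spares glucose. C3H saline mice had 0.572 to 4.89 FPKM in room air and 7.43 to 14.2 in hyperoxia, without overlap. C57B saline mice overlapped, at 2.40 to 9.59 and 7.68 to 18.3. The change over both strains was 1.58 ± 0.21, or 2.99-fold (adjusted p = 4.71e-08), and in ATG mice it was 0.97 (adjusted p = 1.44e-04). After ATG the strains parted. C57B mice had 1.33 to 8.24 FPKM in room air and 10.9 to 29.4 in hyperoxia, a change of 1.66 (adjusted p = 1.45e-05), whereas C3H mice had medians of 3.90 and 3.67 and a change of 0.29 that was not called (adjusted p = 0.463).

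Counted by set of 6 against 6 mice, the members whose air conditions did not overlap were Nr3c1, Fkbp5, Sgk1 and Pdk4 in C3H saline mice (13.9% of genes tested) and Nr3c1, Fkbp5, Zbtb16 and Sgk1 in C57B saline mice (31.4%). They were Nr3c1 and Sgk1 in C3H ATG mice (24.3%) and Fkbp5, Sgk1 and Pdk4 in C57B ATG mice (31.2%). In ATG mice as a whole, 6 of 7 members were called for hyperoxia, 4 higher and 2 lower, with 58.2% of genes called in the background, 33.6% higher and 24.7% lower. Within strains and injections 5 members were called in C3H saline mice (41.1% of genes), 6 in C57B saline mice (57.4%), 5 in C3H ATG mice (43.6%) and 5 in C57B ATG mice (52.1%). The saline and ATG comparisons share no mice.

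**Figure D2:**
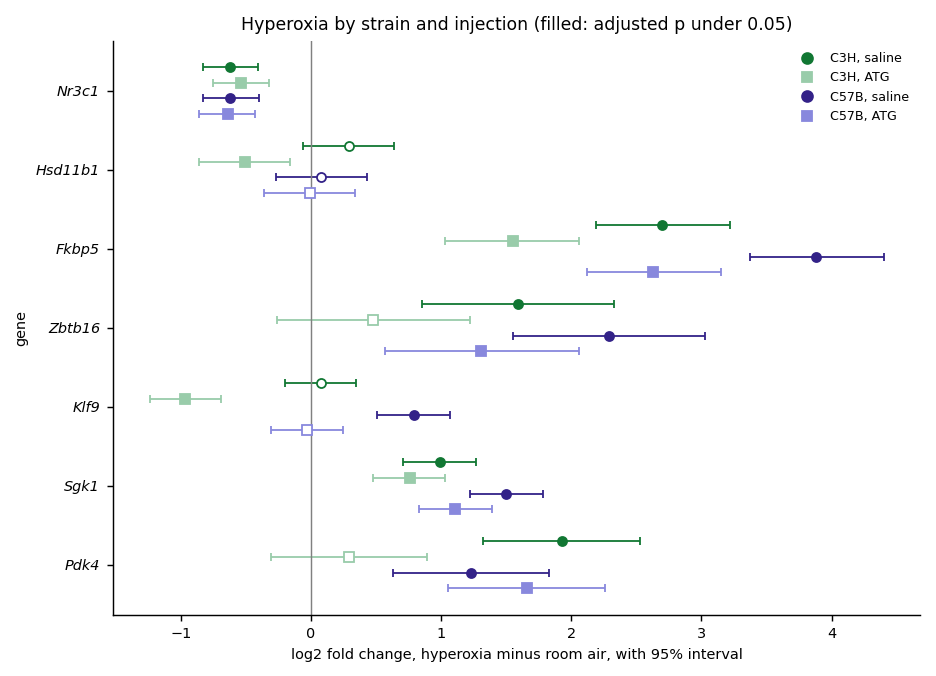
Log2 fold change of hyperoxia against room air for each member within each strain and injection (points), with its 95% interval (bars). All come from 1 fit over the 48 mice with a shared estimate of spread. Filled points passed an adjusted p of 0.05. Nr3c1 sits between -0.64 and -0.54 in all 4 conditions, Fkbp5 between 1.55 and 3.88, and Klf9 lies on both sides of 0.

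Marker genes of several cell types moved with hyperoxia, and in whole lung fewer cells of a type and less RNA per cell cannot be told apart. The counts stand against 61.6% of all genes called in saline mice, 29.1% lower and 32.4% higher, and the fibroblast count is under that share. In saline mice 7 of 8 alveolar type 2 markers were lower and 1 higher (summed FPKM 25956 to 49766 at baseline, 5839 to 22022 in hyperoxia). Lower too were 5 of 8 endothelial markers with 1 higher (1194 to 2096, 823 to 2049) and 3 of 8 fibroblast markers with 1 higher (1903 to 3941, 510 to 2715). All 7 T and NK cell markers fell, while all 6 neutrophil markers were higher (135 to 775, 161 to 6271). Cardiac muscle markers, of which 7 of 8 were lower, summed to 31.0 to 1859 FPKM at baseline and 16.9 to 114 in hyperoxia. Club cell markers summed to 69658 to 230687 FPKM at baseline and 6935 to 42120 in saline hyperoxia, without overlap. Sums rose for alveolar macrophage markers (146 to 615, 269 to 1744) and smooth muscle markers (129 to 299, 235 to 597). None of these markers was at 0 in all mice, and their part in the members' differences was not tested.

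The wider glucocorticoid pathway was read from gene lists, whose counts stand against the 61.6% of all genes called for hyperoxia in saline mice. Against that share, counts such as 13 of 20, 4 of 7, 7 of 9, 8 of 12, 4 of 9 and 9 of 13 below are near it or under it and are given as a description. Of 27 further known glucocorticoid targets 26 were tested, and in saline mice 19 were higher and 2 lower in hyperoxia, with a median log2 fold change of 1.01. Among them were the metallothioneins Mt2 (5.74) and Mt1 (3.93), which bind metals, the cell-cycle inhibitor Cdkn1a (3.95) and the decoy receptor Il1r2 (2.87). The 2 lower genes were Txnip (-0.89), an inhibitor of thioredoxin, and the transcription factor Foxo1 (-0.35). Tsc22d3, which encodes the glucocorticoid-induced leucine zipper and is among the best known targets, was listed at 0 in all 48 mice, and so was Pdha1, a pyruvate dehydrogenase subunit that nearly every cell uses. Several of these genes also respond to metals, to DNA damage or to other signals.

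Proteins that fold the receptor or act with it on DNA gave 12 higher and 1 lower of 20, at a median of 0.21. The lower one was Fkbp4 (-0.92), the co-chaperone that favours hormone binding and counters Fkbp5, and the higher ones included the chaperones Hspa4 (0.53) and Hsp90aa1 (0.45). In steroid handling 2 of 7 were higher and 2 lower. Hsd11b2 (-0.72), which inactivates the hormone, and the mineralocorticoid receptor Nr3c2 (-0.69) were lower, and H6pd (0.49), which supplies the cofactor for Hsd11b1, and the exporter Abcb1b (1.97) were higher.

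Genes that act beside Sgk1 in sodium transport gave 5 higher and 1 lower of 8, with the channel subunit Scnn1a at 1.12 and the pump subunit Atp1b1 at 0.76. Around Pdk4, 4 pyruvate dehydrogenase genes were higher and 3 lower of 9, and the related kinase Pdk2 was lower (-1.41). Fatty acid and PPAR genes gave 6 higher and 2 lower of 12, led by the lipid droplet protein Plin2 (1.93). Klf9's relatives gave 3 higher and 1 lower of 9, with Klf6 at 0.99, Klf5 at 0.87 and Klf2 at -0.68. Of the 13 clock genes 7 were higher and 2 lower at a median of 0.33, with Per1 (1.55), which is also a receptor target, and Cry1 (1.07) the highest.

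The strains differed in how far hyperoxia moved 2 of the members. Fkbp5 rose more in C57B than in C3H, and Klf9 rose in C57B while the C3H change did not pass the test. The difference of the log2 fold changes in saline mice, C3H minus C57B, was -1.18 for Fkbp5 (95% interval -1.91 to -0.45, adjusted p = 0.0205) and -0.72 for Klf9 (-1.11 to -0.32, adjusted p = 0.00983). In folds of FPKM + 1, Fkbp5 rose 6.51-fold in C3H and 14.77-fold in C57B. Its median FPKM went from 3.27 to 33.9 and from 3.46 to 74.5. These were 2 of 7 members, both lower, with 17.6% of all genes tested called for this difference and 4.37% in the lower direction. That lower share was 8.02% after quantile normalization and 9.19% after median ratio scaling. Sgk1 showed -0.51 with an adjusted p of 0.0634, or -0.70 with 0.0146 after median ratio scaling, and the other members had adjusted p-values of 0.262 or more.

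The Fkbp5 difference rested partly on C3H male saline hyperoxia mouse 9, which had 8.83 FPKM where the other 5 C3H saline hyperoxia mice had 24.5 or more, and without it the value was -0.92 (adjusted p = 0.0531). That of Klf9 was kept in all 48 fits that left out 1 mouse. Without baseline mice 1 and 3 together it was -0.62 (adjusted p = 0.0603), and without mice 1, 3 and 4 -0.62 (adjusted p = 0.0601). Compared directly within saline hyperoxia, C3H lay below C57B by -1.23 for Fkbp5 (adjusted p = 2.47e-04) and by -0.58 for Klf9 (adjusted p = 0.00125), where 31.1% of genes were called.

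The same differences were measured in ATG mice, which are other animals. There, C3H minus C57B was -1.09 for Fkbp5 (adjusted p = 0.0462), -0.93 for Klf9 (adjusted p = 0.00139) and -1.37 for Pdk4 (adjusted p = 0.0313), with 10.3% of genes called and 3.76% in that direction. The Klf9 value was kept in all 48 fits that left out 1 mouse, that of Pdk4 was lost in 8 (mice 6, 17, 22, 23, 28, 36, 40 and 48) and that of Fkbp5 in 24. The smallest values were both without C57B female ATG room-air mouse 40, at -0.88 for Fkbp5 (adjusted p = 0.107) and -1.07 for Pdk4 (adjusted p = 0.0783). With a pseudocount of 0.1 both calls ended, at -1.09 (adjusted p = 0.0751) and -1.50 (adjusted p = 0.0634), and so they did with no filter. Without mice 1, 3 and 4, Fkbp5 was -1.02 (adjusted p = 0.0718).

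Among the further glucocorticoid targets, 1 was higher and 6 lower for C3H minus C57B in saline mice, with a median of -0.33 where all genes had 0.15. Those 6 were Mt2 (-2.05), Arl4d (-1.26), Scnn1a (-1.24), Mt1 (-1.22), Per1 (-1.15) and Cebpb (-0.93), and the 1 was Bcl6 (0.57). Clock genes moved with this difference too, 2 higher and 6 lower of 13 at a median of -0.89. So did markers of several cell types, and in some lists the called values were higher for C3H minus C57B. Of all genes tested in saline mice, 13.3% were called higher (2252 genes, or 1270 after quantile normalization and 1306 after median ratio scaling). Higher in saline mice were 3 of 3 club cell (median 2.06), 3 of 8 alveolar type 2 and 3 of 8 endothelial markers. Also higher were 2 of 5 B cell and 2 of 7 T and NK cell markers, with none lower in these lists. Club cell markers summed to 27212 to 42120 FPKM in C3H saline hyperoxia mice and 6935 to 17436 in C57B, and endothelial markers to 1542 to 2049 and 823 to 1138. By median sum, some other lists rose further with hyperoxia in C57B saline mice. Alveolar macrophage markers went from 233 to 389 FPKM in C3H and from 451 to 1374 in C57B. Neutrophil markers went from 188 to 206 and from 461 to 3060, and smooth muscle markers from 199 to 308 and from 181 to 516. In ATG mice 3 of 3 club cell markers (1.62), 4 of 6 neutrophil markers (2.77) and 3 of 7 T and NK cell markers (1.17) were higher. Of all genes tested 6.50% were called higher there. The median sum of alveolar macrophage markers went from 329 to 112 FPKM in C3H ATG mice and from 635 to 1130 in C57B. Neutrophil markers summed to 158 to 2887 FPKM in C3H ATG hyperoxia mice and 232 to 1075 in C57B, against 60.1 to 262 and 222 to 3629 in room air. The part of the clock and of these markers in the members' difference was not tested.

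ATG in room air, the comparison that asks what the injection did without added oxygen, called none of the 7 members. limma called 4 of 16994 genes at all (0.0235%), with 1248 at an unadjusted p under 0.05, and Klf9 and Fkbp5 were the members with unadjusted p-values under 0.05. Klf9 had medians of 32.2 and 27.2 FPKM in C3H and C57B saline mice and 47.0 and 43.6 in ATG mice, a difference of 0.46 (95% interval 0.27 to 0.66, adjusted p = 0.0869). In females, ATG minus saline was 0.71 (adjusted p = 0.0171, with 0.0824% of genes called), and C3H females had 61.9 to 71.5 FPKM after ATG against 33.8 to 48.7 after saline. In males the value was 0.22, with an interval from -0.06 to 0.50, and the difference between the sexes was not tested. The call in females was lost in 6 of 48 fits that left out 1 mouse (mice 27, 28, 30, 37, 38 and 42), with the lowest value, 0.63 (adjusted p = 0.101), without C57B female saline room-air mouse 37. Clock genes moved in the same females, 2 of 13 higher and 1 lower at a median of 0.66, and their part in the Klf9 value was not tested. Dbp, a clock output gene, had 128 to 153 FPKM in C57B ATG females and 13.8 to 24.3 in C57B saline females, and 108 to 133 and 94.8 to 112 in C3H. Fkbp5 showed 0.65 (0.28 to 1.01, adjusted p = 0.35), and the other members had adjusted p-values of 0.698 or more. Within C57B, where 0.0530% of genes were called, limma called no member either, with Klf9 at 0.52 and Fkbp5 at 0.79, and Klf9, Fkbp5 and Zbtb16 had unadjusted p-values under 0.05.

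In hyperoxia Klf9 was lower after ATG than after saline, and no other member was called over both strains. The difference, ATG minus saline, was -0.47 (1.38-fold, adjusted p = 0.00485), 1 of 7 members with 5.38% of genes called, 1.43% lower (2.34% after quantile normalization and 2.68% after median ratio scaling). Fkbp5 (-0.56, adjusted p = 0.0592), Zbtb16 (-0.59, adjusted p = 0.179) and Sgk1 (-0.25, adjusted p = 0.117) had negative values that did not pass. Fkbp5 was called after median ratio scaling (-0.62, adjusted p = 0.0441) and with quality weights per mouse (-0.54, adjusted p = 0.0142). It was also called in 5 of 48 fits that left out 1 mouse. Zbtb16 was called with the weights (-0.71, adjusted p = 0.0269) and without mouse 9 (-0.78, adjusted p = 0.0432). Within C3H, 3 members were called, all lower, with 2.88% of genes and 1.15% in that direction: Klf9 at -0.64 (adjusted p = 0.00527), Pdk4 at -1.11 (adjusted p = 0.0308) and Hsd11b1 at -0.61. Pdk4 had 7.43 to 14.2 FPKM in C3H saline hyperoxia mice and 2.83 to 8.57 after ATG. Its call was lost in 6 of 48 fits that left out 1 mouse (mice 8, 9, 10, 12, 32 and 36), and its value was smallest without C3H female ATG hyperoxia mouse 36 (-0.97, adjusted p = 0.115). It was -1.27 (adjusted p = 0.0545) with a pseudocount of 0.1. Within C57B the same comparison called none of the members. There limma called 2.69% of genes, and Klf9 alone among the members had an unadjusted p under 0.05. The clock gene Per1, also a receptor target, had 20.0 to 25.9 FPKM in C3H male saline hyperoxia mice and 5.52 to 8.94 after ATG. C3H females had 18.2 to 27.3 and 14.3 to 30.1. The hour at which each mouse was taken is not in the labels. The part of the clock in these differences between injections was not tested.

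The difference between injections in the response to hyperoxia was tested directly. The change in ATG mice minus that in saline mice was -1.20 for Fkbp5 (95% interval -1.72 to -0.69, adjusted p = 0.0091) and -0.93 for Klf9 (-1.21 to -0.65, adjusted p = 5.78e-04). These were 2 of 7 members, both lower, with 2.77% of genes called and 1.21% in that direction (2.01% after quantile normalization and 2.14% after median ratio scaling). All 48 fits that left out 1 mouse kept both calls, at -1.33 to -1.09 for Fkbp5 and -0.99 to -0.88 for Klf9. In folds of FPKM + 1, Fkbp5 rose 9.81-fold in saline mice and 4.26-fold in ATG mice. This value holds a higher room-air level after ATG as well as a lower hyperoxia level, neither of which was called alone in the main fit. Both were called with quality weights per mouse. Zbtb16 showed -1.04 (adjusted p = 0.104), Pdk4 -0.60 (adjusted p = 0.265), Hsd11b1 -0.45 (adjusted p = 0.145) and Sgk1 -0.31 (adjusted p = 0.205).

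Within C3H, the difference between injections was called for Klf9 (-1.04, adjusted p = 0.00375) and Pdk4 (-1.64, adjusted p = 0.0407), with 1.34% of genes called. That of Pdk4 was lost in 14 of 48 fits that left out 1 mouse (mice 1, 3, 6 to 10, 12, 26 to 28, 32, 34 and 36) and stood at -1.42 (adjusted p = 0.205) without mice 1 and 3 and at -1.57 (adjusted p = 0.177) without mice 1, 3 and 4, and its adjusted p was 0.057 with a filter at 0.1 FPKM and 0.0694 with none. Its smallest value was -1.39 (adjusted p = 0.0924), without C3H male ATG room-air mouse 6. Within C57B none of the members was called by limma, where 0.153% of genes were, and Fkbp5 (-1.25, adjusted p = 0.146) and Klf9 (-0.82, adjusted p = 0.0742) had unadjusted p-values under 0.05.

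Of the further glucocorticoid targets 4 were lower and none higher for this difference: Per1 (-1.22), Errfi1 (-0.97), Glul (-0.81) and Irs2 (-0.47). Their median was -0.33, and that of all genes 0.04. Alveolar macrophage markers moved with the same difference, 5 lower of 6 with Marco at -2.08, and so did 3 lower of 8 endothelial markers with Tek at -0.59. Alveolar macrophage markers summed to 269 to 1744 FPKM in saline hyperoxia mice and 79.1 to 1606 in ATG hyperoxia mice, and endothelial markers to 823 to 2049 and 816 to 1780. In C3H hyperoxia mice the median sum of alveolar macrophage markers was 389 after saline and 112 after ATG, and in C57B 1374 and 1130. That of endothelial markers was 1736 and 1273 in C3H, and 956 and 860 in C57B. The part of these markers, and of the clock to which Per1 belongs, in the result was not tested.

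**Figure D3:**
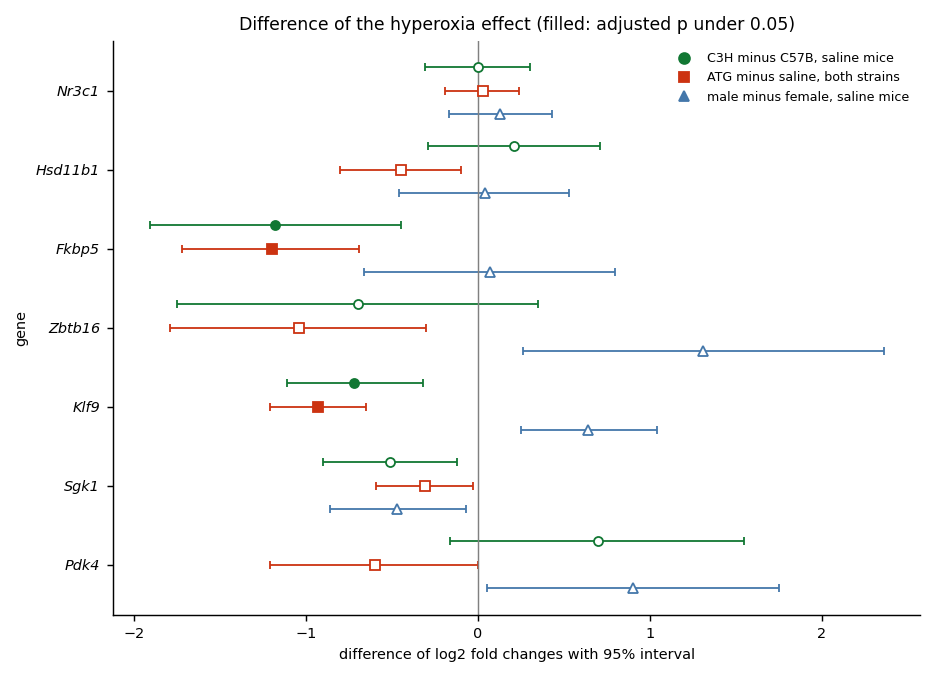
Difference of the hyperoxia log2 fold change for each member between strains (circles, saline mice), injections (squares) and sexes (triangles, saline mice), with 95% intervals; filled points passed an adjusted p of 0.05. Fkbp5 and Klf9 are filled for strain and for injection, at -1.18 and -0.72 and at -1.20 and -0.93, and no member is filled for sex.

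For a difference between the sexes in the response to hyperoxia, limma called no member in saline mice, with 1.80% of genes called. Of the 7, Zbtb16 (1.31), Pdk4 (0.90), Klf9 (0.64) and Sgk1 (-0.47), as males minus females, had unadjusted p-values under 0.05. Klf9 came nearest, with an adjusted p of 0.0652.

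At baseline no member was called between the strains in the fit of the 12 baseline mice, where limma called 11.8% of 15546 genes. Pdk4 (-0.90, adjusted p = 0.0593) and Sgk1 (0.39, adjusted p = 0.102) had unadjusted p-values under 0.05, for C3H minus C57B. The interval of Nr3c1 ran from -0.09 to 0.34 and that of Fkbp5 from -0.48 to 0.37.

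Between the sexes at baseline, Zbtb16 was lower in males, 1 of 7 members with 0.669% of genes called. Males minus females was -1.46 ± 0.27 (2.76-fold, adjusted p = 0.0368). The separation was seen in C3H. The 3 C3H females had 6.94, 12.3 and 19.3 FPKM and the 3 C3H males 0.652, 0.689 and 1.26, whereas C57B females had 1.50 to 4.32 and C57B males 1.32 to 3.55. The difference between strains in the sex difference was -2.68 (adjusted p = 0.0316, with 4.40% of genes called). Both values were fragile. The first was lost in 9 of 12 fits that left out 1 baseline mouse, all except those without C3H male 2, C57B male 13 and C3H female 27, over values of -1.64 to -1.30, and stood at -1.30 (adjusted p = 0.0521) after quantile normalization and -1.32 (adjusted p = 0.191) without mice 1 and 3. Its adjusted p was 0.0535 with a filter at 0.1 FPKM and 0.0855 with none. The second was lost in 8 of 48 (mice 1, 3, 13, 14, 25, 26, 37 and 38), and stood at -2.39 (adjusted p = 0.8) without mice 1 and 3, which left 1 C3H male.

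Over both strains Klf9 and Fkbp5 lay in the same direction at baseline without passing the test in the fit of the 12 baseline mice. In the fit over all 48 mice the same differences were called, with adjusted p-values of 0.00449 and 0.0335. Klf9 had 33.8 to 48.7 FPKM in C3H females and 22.2 to 30.6 in C3H males, and 29.0 to 48.2 and 22.8 to 25.4 in C57B, a difference of -0.64 (adjusted p = 0.0634). No male reached the lowest female of its own strain. Fkbp5 had 4.20 to 8.32 and 1.26 to 2.34 in C3H females and males, and 3.30 to 6.29 and 3.08 to 4.18 in C57B, a difference of -0.82 (adjusted p = 0.0769). Pdk4 showed -0.64 (adjusted p = 0.203). Nr3c1, with an interval from -0.36 to 0.07, and Sgk1 and Hsd11b1 had unadjusted p-values over 0.05.

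Within C3H, the fit over all 48 mice called 18.3% of genes between baseline males and females. In males 14.4% of genes were lower and 3.90% higher, and the median of all genes was -0.19. Of the 7 members 4 were called, all lower in males. They were Zbtb16 at -2.80 (6.97-fold, adjusted p = 9.34e-04), Fkbp5 at -1.40 (adjusted p = 0.0079), Klf9 at -0.66 (adjusted p = 0.0179) and Pdk4 at -1.18 (adjusted p = 0.0467). All 48 fits that left out 1 mouse kept the call of Zbtb16, while that of Fkbp5 was lost without mouse 1 or 25 (-1.22 and -1.25), that of Klf9 without mouse 3, 25 or 26 (-0.64, -0.54 and -0.64) and that of Pdk4 in 18. Without mice 1 and 3 together, which left 1 C3H male, none of the 4 was called (Zbtb16 -2.51, adjusted p = 0.376). Klf9 and Pdk4 were also not called after median ratio scaling (-0.44 and -1.07) or quantile normalization (-0.58 and -0.97). Within C57B limma called no member, with 1.00% of genes called, and Klf9 (-0.62, adjusted p = 0.11), Sgk1 (0.41, adjusted p = 0.335) and Hsd11b1 (0.64, adjusted p = 0.205) had unadjusted p-values under 0.05.

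**Figure D4:**
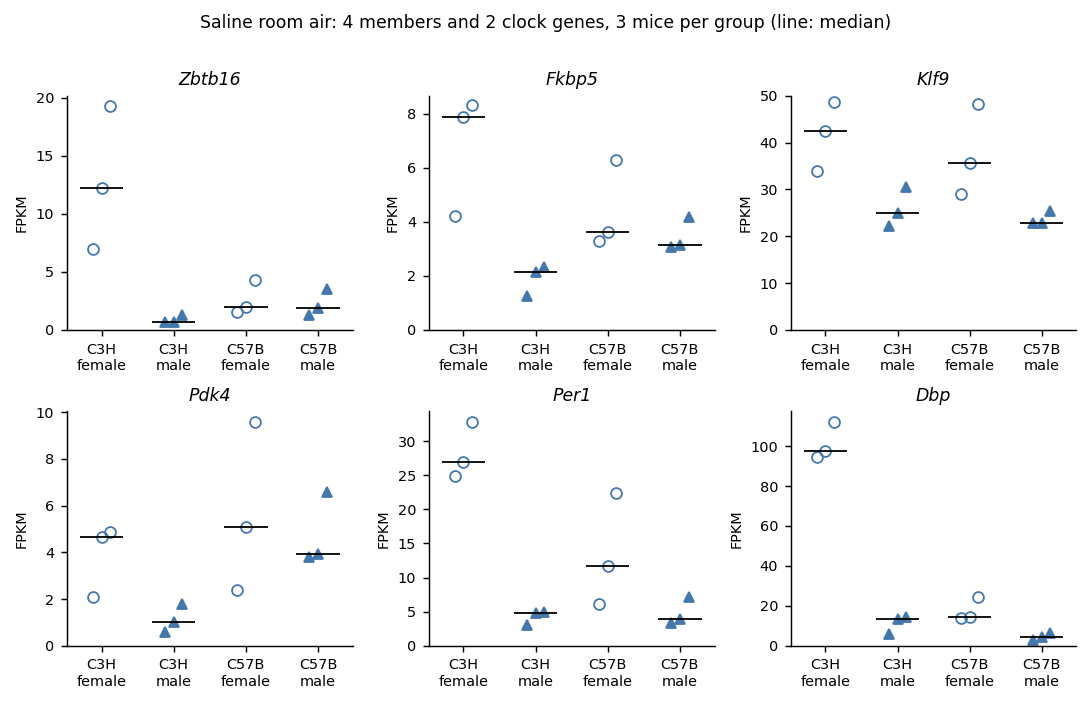
FPKM of 4 members and of the clock genes Per1 and Dbp in the 12 saline room-air mice, by strain and sex (points, 3 mice per group; lines, medians). C3H females stand highest for Zbtb16, at 6.94 to 19.3 FPKM, and for Dbp, at 94.8 to 112, where C3H males have 0.652 to 1.26 and 5.99 to 14.6.

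The ATG room-air mice, which are other animals, gave the sex difference a second measurement. There, males minus females was -1.98 for Zbtb16 (3.96-fold, adjusted p = 0.00128), -1.13 for Klf9 (2.19-fold, adjusted p = 1.16e-06) and -1.01 for Fkbp5 (2.01-fold, adjusted p = 0.0296). These were 3 of 7 members, all lower, with 1.68% of genes called and 1.01% in that direction. Klf9 had 61.9 to 71.5 FPKM in C3H females and 24.2 to 32.2 in C3H males, and 54.5 to 75.0 and 27.8 to 32.6 in C57B. Its difference was called within each strain, at -1.21 in C3H (adjusted p = 5.43e-04, 0.388% of genes called) and -1.06 in C57B (adjusted p = 0.00279, 0.424%). Without C57B female ATG room-air mouse 42 the latter was -0.93 (adjusted p = 0.0594). Zbtb16 had 7.04 to 14.6 in C3H females against 0.939 to 1.94 in males, and 4.00 to 25.8 against 1.17 to 2.78 in C57B. All 48 fits that left out 1 mouse kept the calls of Zbtb16 and Klf9, and 8 (without mice 5, 6, 17, 18, 28, 29, 41 or 42) lost that of Fkbp5, which was -0.78 (adjusted p = 0.169) without mouse 42.

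In hyperoxia, limma called no member between the sexes after saline (2.09% of genes called) or after ATG (0.0177%). Fkbp5 had an unadjusted p under 0.05 in both, at -0.74 and -0.97, and after ATG so did Zbtb16 (-0.84) and Klf9 (-0.41).

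The listed level of Rn18s-rs5 moved with the sex difference in room air. At baseline it was 11999 to 25895 FPKM in C3H males and 4400 to 5381 in C3H females, and 7495 to 9415 and 4768 to 6266 in C57B, without overlap within either strain. After ATG it was 9131 to 22813 in C3H males and 5339 to 6083 in C3H females, while C57B males and females overlapped. Its part in the members' sex difference was not tested.

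Clock genes moved with the sex difference in room air too. At baseline 8 of 13 were lower in males and none higher, with a median of -1.15 where all genes had -0.12, and in ATG room-air mice 9 were lower and 2 higher at a median of -1.82. Dbp had 94.8 to 112 FPKM in C3H females and 5.99 to 14.6 in C3H males at baseline, and 13.8 to 24.3 and 3.02 to 6.13 in C57B. In ATG room-air mice it had 128 to 153 in C57B females and 2.43 to 10.6 in C57B males. Per1 had 24.9 to 32.9 in C3H females and 3.02 to 4.94 in C3H males at baseline. In saline hyperoxia 1 clock gene was higher and 1 lower in males, with a median of -0.09. The hour at which each mouse was taken is not in the labels. Sex, strain, injection and air cannot be told apart from hour by these labels. The part of the clock in the members' sex difference was not tested. Among the further glucocorticoid targets, Per1 (-1.85), Dusp1 (-1.33) and Klf15 (-0.81) were lower in males at baseline and none was higher.

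Across the 16 group means the members fell into patterns that are given as a description, with points that share libraries, air and strain. Fkbp5 went with Pdk4 (Pearson r 0.88), Sgk1 (0.87) and Zbtb16 (0.86) and opposite to Nr3c1 (-0.85). Nr3c1 and Sgk1 were the most opposed pair (-0.92). Klf9 went with Zbtb16 (0.62) and had 0.03 with Sgk1, and Hsd11b1 had between -0.04 and 0.27 with the others.

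**Figure D5:**
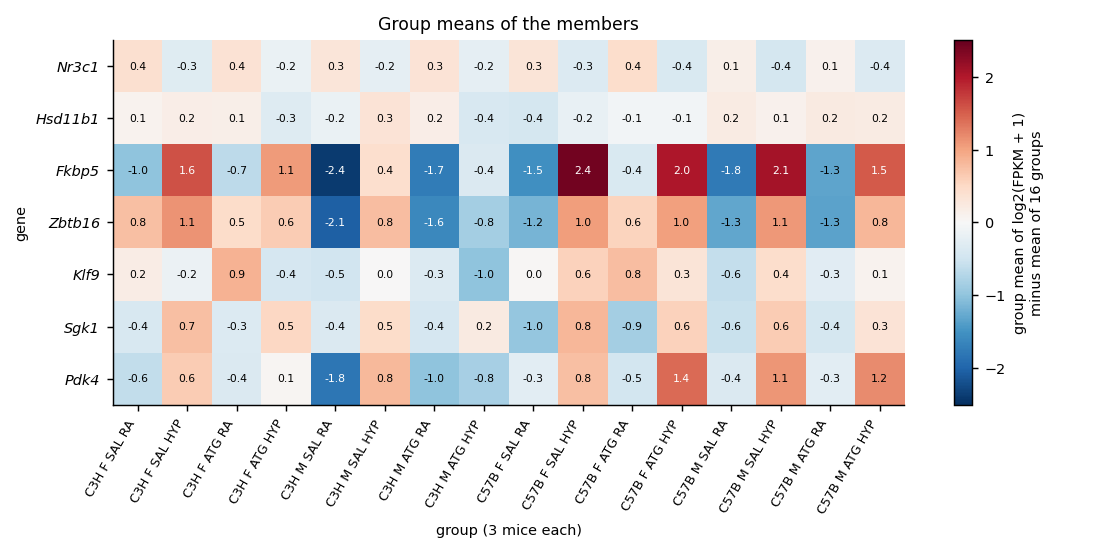
Mean of log2(FPKM + 1) in each of the 16 groups of 3 mice minus that gene's mean over the groups, by member (rows) and group (columns), with red above and blue below 0. Fkbp5 spans -2.4 in C3H male saline room-air mice to 2.4 in C57B female saline hyperoxia mice, and Hsd11b1 stays between -0.4 and 0.3.

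The genes with the group means most like a member's, among those reported here and by the same r over 16 groups, came from different sets. For Zbtb16 they were Wee1 (0.965), a kinase that delays mitosis, and the clock genes Cipc (0.952) and Per1 (0.944). For Klf9 they were Glul (0.919), glutamine synthetase, and Tmem57 (0.898). For Fkbp5 they were the sphingosine phosphate receptor S1pr1 (0.978), Ctgf (0.977) and the growth kinase Mtor (0.977). For Sgk1 they were Ctla2a (0.988), Gm14005 (0.979) and the protease Ctsl (0.974), for Nr3c1 Igsf10 (0.978), 1190002N15Rik (0.978) and Glb1l2 (0.976), and for Pdk4 Fam134b (0.954), Dlg1 (0.948) and Slain2 (0.944). For Hsd11b1 they were Kynu (0.811), Gm17349 (0.796) and Cenpb (0.770).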

How the data were processed

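Total RNA from whole lung of 48 mice was sequenced as stranded mRNA libraries. Per the labels and the submitters' processing notes, reads were handled with GSNAP, SAMtools and Cufflinks on mm10, and the authors deposited 1 matrix of FPKM per gene and mouse, with no counts. FPKM depend on total expression in a mouse, so a few abundant genes can shift all others. 0 columns of per-mouse values were left unused. Of 47561 genes, 20454 were 0 in all mice and 1 was left out for 7 failed values. Relative depth read from low values was 0.779 to 1.27, but whole reads could not be recovered.

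Groups came from the labels. The values log2(FPKM + 1) were fitted over 16 group means with limma 3.58.1 in R 4.3.3 (empirical Bayes with trend), keeping genes that reached 1 FPKM in 3 or more mice (16994 genes in 48 mice). Strain and sex at baseline used the 12 saline room-air mice (15546 genes), except within a strain, between strains for the sex difference, and in ATG or hyperoxia mice, where the 48-mouse fit was used. Calls used a Benjamini-Hochberg adjusted p of 0.05, tests were two-sided, and the model was tested on simulated data. Intervals are 95%. The labels give each mouse its own number and do not say whether mice shared a cage or litter, so p-values measure the spread between these mice.

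The members and gene lists were chosen with earlier results of these data known. Named genes were the 7 members, the 3 genes nearest to each by correlation of group means, and up to 4 called genes per pathway list with the greatest change with hyperoxia; other list and marker genes were named after their values were seen. A few genes that this rule names are not reported here. Alternatives changed the pseudocount and filter (0.1, or none), scaling, trend, mouse weights and mice fitted. Gene positions are from GENCODE M21 and promoter windows from RefSeq (GRCm38.p6). Python 3.11.15 and pandas 2.3.3 were used for tables.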

Additional observations from a re-analysis of the deposited data

Results flagged for a closer look

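Of 56 sets of 6 mice of 1 strain, injection and air (7 members by 8 sets), 4 had a single mouse farther from the rest than Dixon's 95% limit allows. For 6 values from 1 normal distribution, chance meets this rule in about 1 in 20 sets. These sets were FPKM without logs and pooled both sexes, so that rate may not hold for them. All 4 were C57B females in room air. Nr3c1 was 39.1 FPKM in saline mouse 38, with the next at 32.3. Fkbp5 was 6.29 in saline mouse 39, with the next at 4.18. ATG mouse 42 was highest both for Fkbp5, at 20.7 with the next at 9.90, and for Zbtb16, at 25.8 with the next at 9.82.

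A tested difference between groups in the same contrast was called 10 times over the 7 members and all contrasts of this kind. The results within C3H share their mice with those over both strains. For hyperoxia by strain, C3H minus C57B, it was -1.18 for Fkbp5 and -0.72 for Klf9 in saline mice (17.6% of genes called). In ATG mice it was -1.09 for Fkbp5, -0.93 for Klf9 and -1.37 for Pdk4 (10.3%). For hyperoxia by injection, ATG minus saline, it was -1.20 for Fkbp5 and -0.93 for Klf9 over both strains (2.77%). Within C3H it was -1.04 for Klf9 and -1.64 for Pdk4 (1.34%). For sex by strain at baseline it was -2.68 for Zbtb16 (4.40%). Hyperoxia by sex in saline mice (1.80%) and by injection within C57B (0.153%) called no member. Of 48 fits that left out 1 mouse, 24 lost Fkbp5 by strain in ATG mice and 14 lost Pdk4 by injection within C3H. Pdk4 by strain in ATG mice and Zbtb16 were each lost in 8, and Fkbp5 by strain in saline mice in 1. The others were kept in all 48.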

How the results depend on the processing

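In every alternative and in every fit without 1 mouse, the 6 hyperoxia calls among the members in saline mice kept their direction and their call. No paired analysis was possible because each mouse carries its own number in the labels. Without 1 mouse in turn, limma called these numbers of genes (of members): hyperoxia in saline 10169 to 10625 (6 to 7), in ATG mice 9633 to 10102 (6 to 7), ATG in room air 2 to 284 (0 to 1), ATG in hyperoxia 530 to 1247 (1 to 3), hyperoxia by strain 2145 to 4032 (1 to 3), by sex 43 to 2368 (0 to 2), by injection 243 to 1093 (2 to 3), strain 1306 to 4021 (0 to 1) and sex 20 to 3640 (0 to 3). The highest gene counts were without C3H male baseline mouse 2, except mouse 21 for ATG in hyperoxia. Quality weights per mouse moved most counts: ATG in room air 4 to 1069 genes (members 0 to 2), ATG in hyperoxia 914 to 3007 (1 to 4), hyperoxia by strain 2994 to 6516, by sex 306 to 5928 (0 to 4), by injection 470 to 2803 (2 to 6), strain 1832 to 6697 (0 to 2) and sex 104 to 7047 (1 to 5). With no filter ATG in room air gave 8, hyperoxia by sex 162, by injection 313 and sex 40 (members 0); with the filter at 0.1 hyperoxia by sex gave 188 and sex 60 (members 0). Median ratio scaling gave 174 for hyperoxia by sex, 2 members for ATG in hyperoxia and 1 for strain; quantile normalization gave 0 members for sex. Without mice 1 and 3, hyperoxia by strain gave 1953, by sex 5 and sex 30 (members 0); without mice 1, 3 and 4, chosen after seeing the data, by sex gave 4 and by injection 305; with only the mice compared, hyperoxia by strain gave 1880 and by sex 6. The 48-mouse fit gave 2982 genes and 2 members for strain and 1915 and 3 for sex.

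Scaling mattered where the median of all genes was off 0: 0.15 for hyperoxia by strain, 0.13 by sex, -0.12 for sex and -0.10 for strain. The share of called genes that were higher moved, for quantile and median ratio scaling in turn, from 73.4% to 44.1% and 37.7% for ATG in hyperoxia, 75.2% to 48.2% and 45.6% for hyperoxia by strain, 79.7% to 51.6% and 39.7% by sex, 56.4% to 34.7% and 32.8% by injection, 33.2% to 51.1% and 48.0% for strain, and 35.6% to 55.8% and 49.3% for sex. Signs turned only for members not called: Hsd11b1 for hyperoxia in saline (quantile -0.03), by strain (without mice 1 and 3, and also without 4, -0.14), by sex (median ratio -0.13, without 1 and 3, and also 4, -0.32) and for strain (weights -0.11); Nr3c1 for ATG in room air (median ratio -0.01, without 1 and 3 -0.01), ATG in hyperoxia (median ratio -0.02, weights -0.06), hyperoxia by sex (median ratio -0.03) and by injection (quantile -0.00, median ratio -0.01, weights -0.07); Sgk1 for ATG in room air (without 1 and 3, -0.01); Fkbp5 for hyperoxia by sex (quantile -0.04, median ratio -0.05, without 1 and 3, and also 4, -0.04) and for strain (quantile 0.12, median ratio 0.02, weights 0.07, without 1 and 3 0.06). Without 1 mouse signs also turned for Nr3c1 in ATG in room air (-0.01 to 0.04), hyperoxia by strain (-0.09 to 0.06) and by injection (-0.02 to 0.06), Fkbp5 in hyperoxia by sex (-0.11 to 0.34) and strain (-0.13 to 0.08), and Hsd11b1 in hyperoxia by sex (-0.07 to 0.21) and strain (-0.10 to 0.19). The cause was not tested. The FPKM carry no depth, so precision rests on 3 mice per group.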
